A study of Mus musculus with 2 samples.

Results

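The genes described are 57 homeobox genes that lie outside the Hox clusters, taken from a fixed list of symbols among the 21853 protein-coding genes of the mm10 annotation (GENCODE M21). All 57 symbols matched the annotation. They were kept in 4 classes by what they are known for in the mouse: 22 factors of limb mesenchyme and skeleton, 4 factors of the muscle lineage, 11 broadly used factors and 20 factors of other organs. These members and classes were chosen with earlier results of these data known, so differences between classes are descriptions only. Chromatin accessibility was measured by DNase-seq, which reads the ends of fragments that the nuclease DNase I cuts out of open chromatin. The tissue was gastrocnemius, the large calf muscle, of B6CASTF1/J males at an age of 10 days. This strain is a first-generation hybrid that carries a C57BL/6 and a CAST allele of each autosomal gene. A single group with 2 libraries was available, labelled biological replicates 1 and 2 with technical replicate number 1 each. The labels of both name 3 males and the same donor record and do not state whether tissue was pooled, so the spread between the libraries may be partly technical. With 1 group there was no contrast between conditions and no test was made. Values are descriptions, set beside the same measure over all coding genes, and paired values are those of replicate 1 and then of replicate 2.

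A homeobox encodes the homeodomain, a helix-turn-helix fold that reads short AT-rich DNA words. Outside the Hox clusters the family includes the TALE cofactors of the Pbx, Meis and Tgif types, the LIM-homeodomain factors, the Iroquois, Dlx, Nkx and Msx factors, and large proteins that join homeodomains to zinc fingers. Many of them set the position of limb and head structures or the identity of neurons and organs in the embryo, and their starts often lie in CpG islands, which can be held silent in tissues that do not use the gene.

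Replicate 1 had 123255 peaks and replicate 2 had 150088, with 35695993 and 43782204 bases listed by the authors at a false discovery rate (FDR) under 0.05, called listed bases here. The value of a peak is the deposited signal, scaled to depth, and the median peak had 0.729 and 0.716. These signals were taken as multiples of a fitted step of 0.00544 in replicate 1 and 0.00587 in replicate 2. Read in this way, the median peak rested on 134 and 122 steps. Intervals below are 95% Poisson intervals that take 1 step as 1 cut, and cover counting error only. Of the marker genes, 10 of 10 myofibre genes had a promoter peak in both replicates, against 66% of all coding genes. So had 8 of 10 mesenchyme, 7 of 8 endothelial, 7 of 8 neuronal and 3 of 8 epithelial genes. The median of the highest promoter peak, with no peak counted as 0, was 2.93 and 5.65 in myofibre and 2.42 and 3.23 in mesenchyme genes. It was 0.832 and 1.24 in endothelial, 0.742 and 0.607 in neuronal and 0.250 and 0 in epithelial genes, against 1.91 and 2.37 in all coding genes. In whole muscle, fewer cells with an open site and less opening per cell cannot be told apart.

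Most of the homeobox genes had an open promoter in this muscle, but few of the openings were high. A promoter, here the 500 bp on either side of any coding start, was called open when a peak overlapped it, and its value was that of its highest peak. In replicate 1, 52 of the 57 homeobox promoters were open, against 67.8% of all coding genes, and in replicate 2 it was 49 of 57, against 68%. In both replicates 49 were open, or 86.0% of the homeobox genes, against 66% of all coding genes. A value above the median peak in both libraries was found at 39 (68.4%), against 59.8% of all coding genes. Above the median open promoter, which had 4.49 and 6.16, there were only 3 in both libraries, or 5.26%, against 31.3% of all coding genes: Pbx3, Pbx2 and Tgif1. The median over the genes open in both replicates was 1.38 and 1.85 for the homeobox genes, against 4.64 and 6.44 for all coding genes. Counting closed promoters as lowest, the medians were 1.25 and 1.62 for the homeobox genes and 1.91 and 2.37 for all coding genes. In the stricter of the deposited peak sets 37 homeobox promoters had a peak in both replicates (64.9%), close to the 61.8% of all coding genes.

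**Figure D1:**
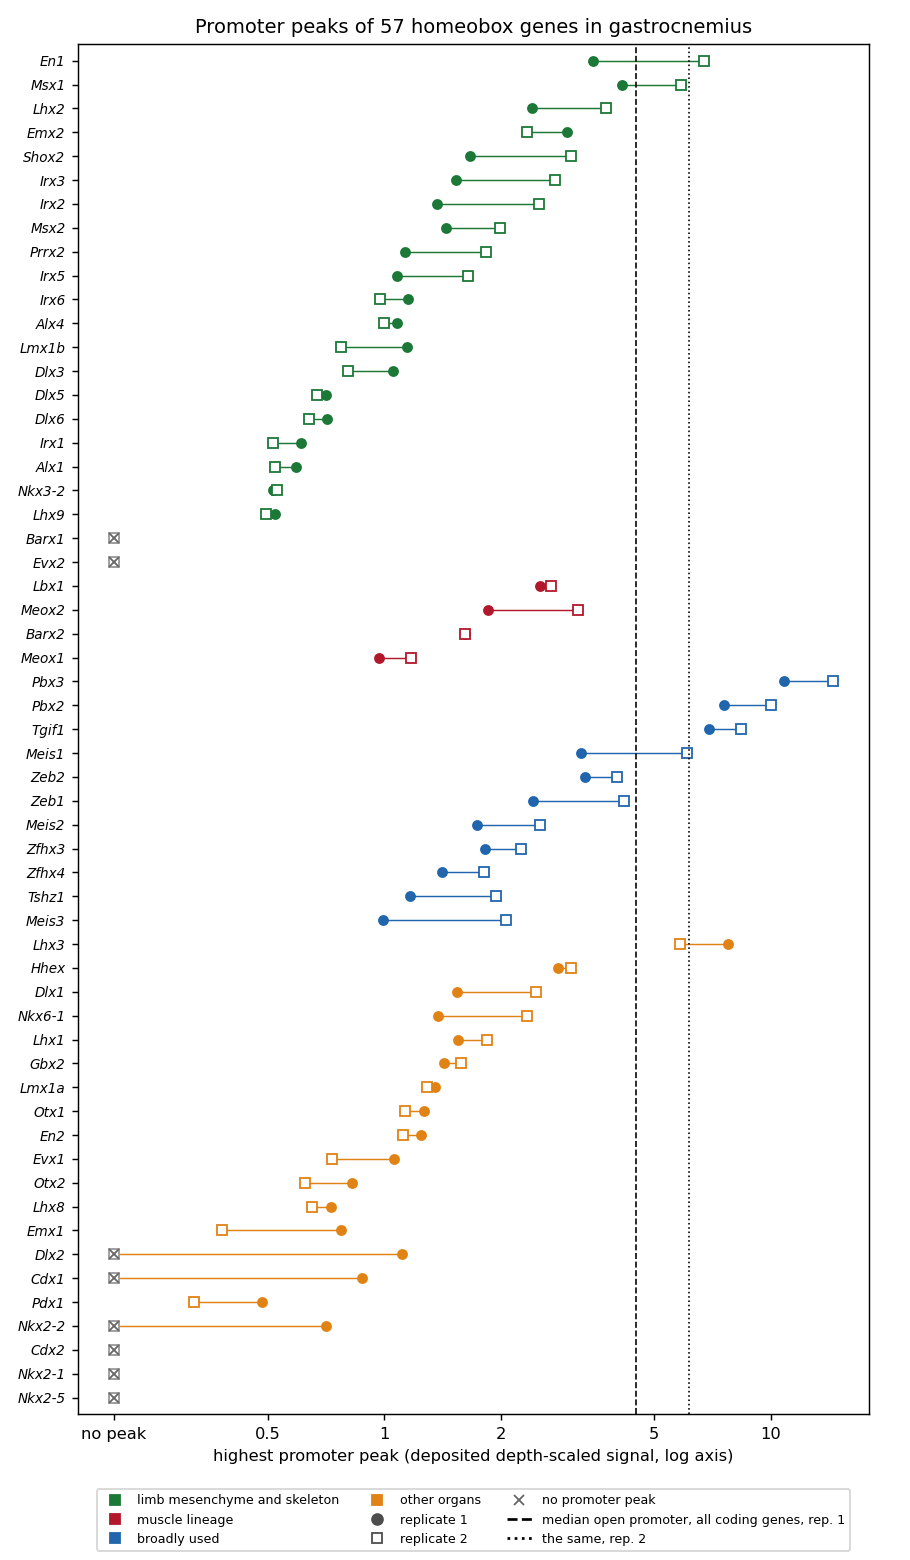
Value of the highest promoter peak of each of the 57 homeobox genes (log axis, deposited depth-scaled signal), with filled circles for replicate 1, open squares for replicate 2 and crosses for no promoter peak. The lines mark the median open promoter of all coding genes, 4.49 in replicate 1 and 6.16 in replicate 2, and Pbx3, Pbx2 and Tgif1 lie to the right of both in both replicates.

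All 11 broadly used factors were open in both replicates, and they held the only 3 promoters above the median open promoter in both. In replicate 1 the organ factor Lhx3, with 7.73, also lay above Pbx2 and Tgif1. The median promoter of the broadly used factors had 2.43 in replicate 1 and 4.0 in replicate 2. Pbx3, a TALE cofactor that binds DNA together with Hox proteins, led with 10.8 (10.4 to 11.3) and 14.5 (13.9 to 15.1). Pbx2, a cofactor of the same type, had 7.59 (7.19 to 8.0) and 9.99 (9.53 to 10.5). Both intervals of either gene lay above the median open promoter of the same replicate. Tgif1, a TALE repressor that acts with SMAD proteins in TGF-beta signalling, had 6.93 and 8.38. Meis1, a partner of Pbx and Hox proteins, had 3.24 and 6.07. Zeb2 and Zeb1, zinc finger and homeodomain repressors known from epithelial to mesenchymal transition, came next. Zeb2 had 3.31 and 4.0, and Zeb1 had 2.43 and 4.17. The other broadly used factors, Meis2, Meis3, Zfhx3, Zfhx4 and Tshz1, were lower, at 0.995 to 1.83 in replicate 1 and 1.81 to 2.52 in replicate 2. At Tshz1 a higher peak, with 4.17 and 6.79, lay outside the windows of its coding starts. It was within 500 bp of other annotated starts, of Tshz1 and of Zadh2. In each of the 11 genes the promoter value of replicate 2 was the higher.

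The open sequences of Pbx3 and Tgif1 are shown because these are among the highest promoters of the set, chosen after their values were seen. Each is the part of the replicate 1 promoter peak that lies outside annotated exons, on the strand of the gene in mm10, and capitals mark bases inside footprints of both replicates, footprints being short stretches protected from cutting. The Pbx3 stretch is chr2:34372681-34372900 on the minus strand, and that of Tgif1 is chr17:70849815-70849940 on the minus strand.
Pbx3: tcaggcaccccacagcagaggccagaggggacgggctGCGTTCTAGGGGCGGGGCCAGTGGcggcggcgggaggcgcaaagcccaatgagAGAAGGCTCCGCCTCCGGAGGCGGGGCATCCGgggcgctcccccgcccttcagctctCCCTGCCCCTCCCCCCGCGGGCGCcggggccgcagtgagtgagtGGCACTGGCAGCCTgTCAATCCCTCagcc
Tgif1: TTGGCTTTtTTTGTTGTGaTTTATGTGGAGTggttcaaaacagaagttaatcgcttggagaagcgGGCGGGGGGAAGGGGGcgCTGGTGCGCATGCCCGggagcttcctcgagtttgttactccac
The SP/KLF word GGGCGG, searched on both strands, occurred 2 times in the Pbx3 stretch, with 1 match wholly in capitals, and 1 time in that of Tgif1, outside or partly outside them. In the 150 bp around the midpoint of promoter peaks it was found in 25 of 52 homeobox promoters (48.1%) in replicate 1 and 24 of 49 (49.0%) in replicate 2, against 56.98% and 57.8% of the promoter peaks of all coding genes. The TALE word TGACAG was in 3 of 52 and 2 of 49 homeobox promoter peaks (5.77% and 4.08%), against 7.29% and 7.86% over all coding genes. The homeodomain word TAATTA was in 0 of 52 and 1 of 49, against 0.243% and 0.330%. The E-box CAGCTG was in 3 in each replicate (5.77% and 6.12%), against 9.77% and 10.3%. The PBX and HOX word TGATNNAT was in 2 of 52 and 2 of 49 (3.85% and 4.08%), against 0.850% and 0.943%. Of these words, the Pbx3 stretch held TGACAG and the Tgif1 stretch TGATNNAT, neither wholly in capitals. A word in a window or stretch is a description of the sequence and does not show that a factor was bound.

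All 4 factors of the muscle lineage had an open promoter in both replicates, at moderate values. Lbx1, which marks the precursors that migrate into the limb bud to form muscle, had 2.53 (2.31 to 2.78) and 2.71 (2.46 to 2.96). Meox2, which is needed for normal limb muscle in the mouse, had 1.86 (1.67 to 2.07) and 3.17 (2.91 to 3.45). Barx2, a regulator of myoblasts and satellite cells, had 1.62 in both. Meox1, a somite factor, was lowest with 0.968 and 1.17. None of the 4 reached the median open promoter in either replicate. At Meox1 the peaks differed in place: the midpoint of the highest peak lay 596 bp inside the gene from the start in replicate 1 and 46 bp upstream of it in replicate 2, and 0.699% and 31.8% of the promoter bases were listed.

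The Meox2 stretch, chr12:37108281-37108539 on the plus strand, ends at the base before the annotated start and is shown, chosen after values were seen, as an open promoter of a muscle-lineage gene. Capitals again mark bases in footprints of both replicates.
Meox2: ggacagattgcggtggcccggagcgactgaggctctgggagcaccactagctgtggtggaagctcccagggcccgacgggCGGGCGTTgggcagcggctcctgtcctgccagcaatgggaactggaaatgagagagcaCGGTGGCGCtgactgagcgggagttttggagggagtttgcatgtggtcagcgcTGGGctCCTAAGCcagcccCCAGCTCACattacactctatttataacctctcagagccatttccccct
It held 1 match to GGGCGG, not wholly in capitals, and a match to the MEF2 motif near its end, which lay outside the shared footprints. Over the promoter peaks of all coding genes the MEF2 motif was found in 0.304% and 0.444%, and in the homeobox set in 1 of 52 (1.92%) and 1 of 49 (2.04%). In replicate 1 every base of the Meox2 promoter window was listed, and in replicate 2 98.5% of them.

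Of the 22 factors of limb mesenchyme and skeleton, 20 had an open promoter in both replicates (90.9%), against 66% of all coding genes, and Barx1 and Evx2 had none. In the stricter peak set it was 13 of 22 (59.1%), against 61.8% of all coding genes. The median over the class was 1.11 and 0.986. Msx1, a repressor that keeps limb and craniofacial progenitors from differentiating, was highest in replicate 1, with 4.12 (3.83 to 4.43) and 5.87 (5.51 to 6.24). En1, which sets the ventral side of the limb bud, was highest in replicate 2, with 3.46 (3.20 to 3.74) and 6.73 (6.34 to 7.13). In replicate 2 En1 was above the median open promoter of 6.16, and in replicate 1 it was below that of 4.49. Lhx2, a LIM-homeodomain factor of the limb bud tip, had 2.41 and 3.76. Emx2, needed for the scapula as well as the forebrain, had 2.97 and 2.34. Shox2, which drives growth of the proximal limb bones, had 1.67 and 3.03, but this peak also lay within the promoter window of its neighbour Rsrc1. Irx3, an Iroquois factor of limb and heart, had 1.53 and 2.77. The other 14 open limb promoters ranged in value over 0.517 to 1.44 in replicate 1 and 0.493 to 2.51 in replicate 2. They include Dlx5 and Dlx6, factors of cartilage and bone that share a locus, with 0.707 and 0.669 at Dlx5 and 0.712 and 0.640 at Dlx6.

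The Msx1 stretch, chr5:37824584-37824700 on the minus strand, is shown as the highest limb promoter of replicate 1.
Msx1: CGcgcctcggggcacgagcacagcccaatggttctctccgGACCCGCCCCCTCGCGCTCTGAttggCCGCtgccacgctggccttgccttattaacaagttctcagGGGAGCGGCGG
The capitals, bases in footprints of both replicates, hold the 1 match to GGGCGG, read on the other strand as CCGCCC.

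Among the 20 factors of other organs, 14 promoters were open in both replicates (70.0%), close to the 66% of all coding genes, and 3 more, Dlx2, Nkx2-2 and Cdx1, in replicate 1 alone. Opening in exactly 1 replicate was thus seen at 3 of the 57 homeobox genes (5.26%), against 3.83% of all coding genes. Opening in replicate 1 alone was seen at 1.86% of all coding genes, and opening in replicate 2 alone at 0 of the 57 homeobox genes, against 1.98% of all coding genes. Dlx2, a factor of forebrain interneurons, had 1.11 in replicate 1, Nkx2-2, of spinal cord and pancreas, had 0.707, and Cdx1, of the intestine, had 0.876. The median over the class was 1.09 and 0.693. Lhx3, which specifies motor neurons and the pituitary, stood far above the rest with 7.73 (7.34 to 8.15) and 5.84 (5.48 to 6.21), so that it was above the median open promoter in replicate 1 and below it in replicate 2. Hhex, a factor of liver, thyroid and endothelium, had 2.82 and 3.05. Dlx1, the partner of Dlx2, had 1.54 and 2.48. Nkx6-1, of motor neuron progenitors and beta cells, had 1.38 and 2.34. Lhx1, of kidney and head, had 1.55 and 1.85, and Gbx2, of the anterior hindbrain, had 1.43 and 1.58. Apart from Lhx3 these 5 values lay below the median open promoter in both replicates. The other 8 that were open in both, Lmx1a, Otx1, En2, Evx1, Otx2, Lhx8, Emx1 and Pdx1, had 0.484 to 1.35 in replicate 1 and 0.323 to 1.29 in replicate 2, and each of them was lower in replicate 2.

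The Lhx3 stretch, chr2:26208290-26208380 on the minus strand, is shown because no other organ factor came near its value.
Lhx3: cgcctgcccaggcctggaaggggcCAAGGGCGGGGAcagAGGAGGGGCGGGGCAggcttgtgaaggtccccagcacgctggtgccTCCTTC
Both of its 2 matches to GGGCGG lay wholly within capitals, the bases in footprints of both replicates.

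A promoter without a peak in either replicate was found at 5 homeobox genes (8.77%), while 30.2% of all coding genes had none. They were Nkx2-5, the heart factor, Nkx2-1, of thyroid, lung and forebrain, Cdx2, of the intestine, Barx1, of stomach mesenchyme and teeth, and Evx2, which lies beside the HoxD cluster and whose locus overlaps those of Hoxd9 to Hoxd13. Their promoters were richer in CpG than the median coding gene, although Nkx2-5 fell just under the limit of 0.6 used below for CpG-rich promoters. Observed over expected CpG was 0.598 at Nkx2-5, 0.776 at Nkx2-1, 0.637 at Cdx2, 0.882 at Barx1 and 0.813 at Evx2, against a median of 0.507 over all coding genes. At Nkx2-5, 0.150% of the promoter bases were listed in replicate 1, and at the other 4 no promoter base was listed in either replicate.

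The homeobox promoters were richer in CpG than those of coding genes in general, and within the CpG-rich class fewer of them were open. Of the 57 homeobox promoters, 42 were CpG-rich, with an observed over expected ratio of at least 0.6 (73.7%), against 39.1% of all coding genes. The median ratio was 0.696, against 0.507. Among CpG-rich promoters 35 of the 42 homeobox genes were open in both replicates (83.3%), against 97.1% of all coding genes. Among the others 14 of 15 homeobox promoters were open in both (93.3%), against 46.0% of coding genes. CpG-rich promoters open in both replicates had a median of 1.37 and 1.64 in the homeobox genes and of 6.04 and 8.56 in all coding genes. This division by CpG content was chosen after the values were seen.

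**Figure D2:**
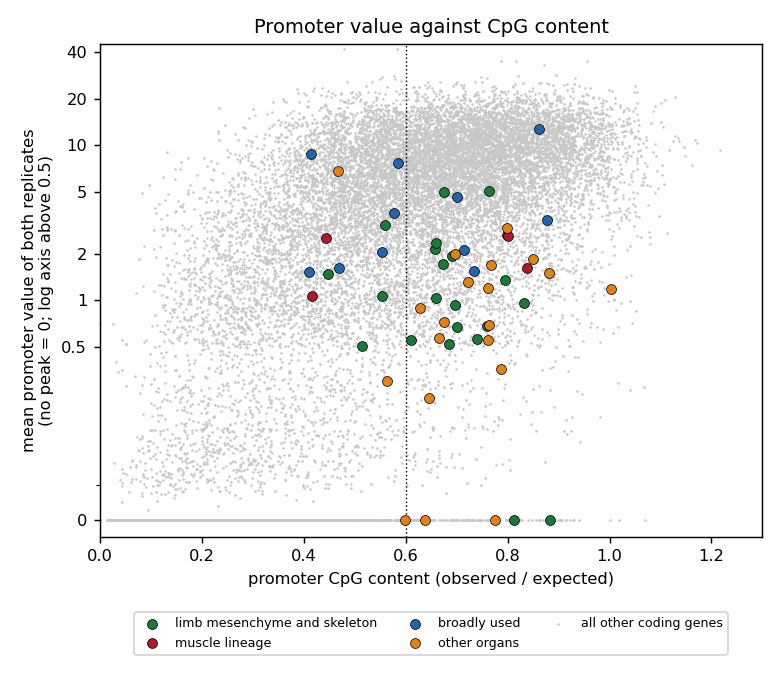
Mean promoter value of both replicates (log axis above 0.5, no peak counted as 0) against the observed over expected CpG ratio of the promoter, for the homeobox genes by class and for all other coding genes in grey, with a line at a ratio of 0.6. Of the 42 homeobox genes to the right of the line or on it, 30 had a mean value under 2.

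The openings at homeobox starts were as often wide as at other open promoters. Stretches listed in both replicates and joined over gaps of up to 150 bp reached at least 1000 bp over 21 homeobox promoters, against 27.6% of all coding genes. Of the genes open in both replicates these were 42.9% of the homeobox genes and 41.8% of the coding genes, so the share was close to the background. Among CpG-rich promoters open in both it was 42.9% against 54.2% of coding genes. Among the others it was 42.9% against 24.9%. By class of factor, 8 of 11 broadly used and 2 of 4 muscle factors had such a stretch. So had 7 of 22 limb and 4 of 20 organ factors. The widest lay over Tgif1 with 3447 bp, Irx5 with 3062 bp, Pbx3 with 2884 bp, Meis1 with 2858 bp and Zeb1 with 2486 bp, named after their values were seen. Irx5, an Iroquois factor of limb, retina and heart, thus had the second widest stretch beside a promoter value of only 1.08 and 1.64. At Irx5, 95.5% and 90.8% of the promoter bases were listed.

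Within 500 bp of the first coding start, as the mean of both replicates, 63.5% of the bases were listed in broadly used factors, 72.8% in muscle factors, 45.7% in limb factors and 26.3% in organ factors, against 45.3% in all coding genes. Between 2 and 3 kb from the start it was 18.98%, 12.4%, 8.38% and 6.81% in the same classes, against 2.89% in all coding genes. Some members, such as Pbx2, Tgif1, Zfhx4 and Shox2, have further coding starts of their own at that distance. The part of such starts in these shares was not worked out. For the organ factors this distant share differed between the replicates, at 9.97% and 3.65%, against 2.77% and 3.01% in all coding genes, and in the limb factors it was 10.0% and 6.76%. The 4 muscle factors are few, and their curve moves in steps of single genes.

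**Figure D3:**
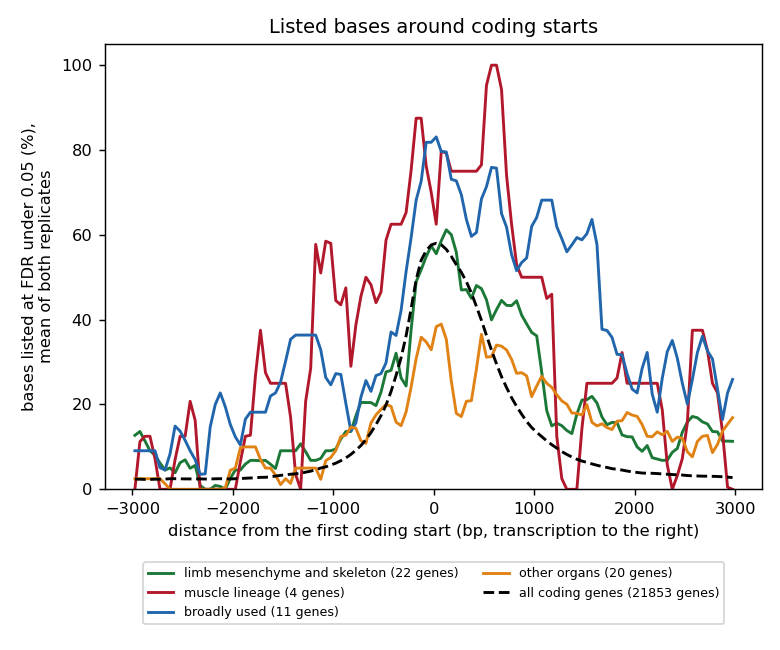
Percentage of bases listed at an FDR under 0.05, in bins of 50 bp, against the distance from the first coding start (bp, transcription to the right), as the mean of both replicates, for the 4 classes (solid) and all coding genes (dashed). All coding genes reach 58.0% at the start and average 2.89% between 2 and 3 kb from it, where the class means are 6.81% to 18.98%.

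Footprints were found in the promoters of 45 homeobox genes in both replicates (78.9%), against 64.3% of all coding genes. Footprints that overlapped between the replicates were found at 37 of them (64.9%), close to the 62% of all coding genes. The median number of promoter footprints was 5 and 4 in the homeobox genes and 5 in each replicate in all coding genes, and the median number shared by position was 1 in the homeobox genes against 3 in all coding genes. Tgif1, with 4 separate promoter windows, had 29 and 30 footprints, of which 21 were shared. Zeb2, also with 4 windows, had 27 and 24, of which 15 were shared.

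For 22 homeobox genes the coding starts fell into separate windows, and the windows were not equally open. Every window was open in both replicates at 8 of these genes (36.4%), against 10.5% of the 7388 coding genes with separate windows. Some but not all were open at 12 (54.5%), against 59.8%, and none at Nkx2-1 and Nkx2-5 (9.09%), against 29.6%. At Pbx3 the window of the outermost start, at position 34373142 of chromosome 2, carried the value of 10.8 and 14.5, and the window of the inner starts had 1.39 and 1.14. At Tgif1 all 4 windows were open, with 0.837 and 1.21 at the innermost one, 6.93 and 8.38 and then 2.30 and 2.81 in the middle, and 3.87 and 5.72 at the outermost. At Zfhx3, a large zinc finger and homeodomain protein, the outermost start was closed, and the peak of 1.83 and 2.25 lay at the innermost start, at position 108714644 of chromosome 8. At Lhx2 the highest value of 2.41 and 3.76 was at an inner start, and the outermost one had 0.837 and 0.710. At Lhx3 the outer start held the peak, and the inner one had 0.555 in replicate 1 and no peak in replicate 2.

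Beyond the promoter, the cover of whole homeobox loci differed between the libraries, and its order beside other genes depended on the library. Locus cover is here the share of bases, in percent, that were listed over a gene body and 20 kb on either side. Its median was 3.37% and 2.52% in the homeobox genes and 2.57% and 2.93% in all coding genes, so the order of the gene sets turned round between the replicates. For bases under an FDR of 0.001, as the mean of both replicates, it was 1.48% in the homeobox genes and 1.89% in all coding genes. Cover was higher in replicate 1 than in replicate 2 at 37 of the 57 homeobox genes (64.9%), against 27.2% of all coding genes, while replicate 2 had more listed bases in total. By class it was 16 of 20 organ factors, 16 of 22 limb factors, 2 of 4 muscle factors and 3 of 11 broadly used factors. Promoter values ran the same way: replicate 2 was higher at 29 of the 49 homeobox genes open in both (59.2%), against 82% of the coding genes open in both, and by class this was 5 of 14 organ factors, 10 of 20 limb factors, 3 of 4 muscle factors and 11 of 11 broadly used factors.

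Single loci differed in cover by several times between the libraries, and those named here were chosen after their values were seen. Evx1, of spinal interneurons, had 7.74% of its locus listed in replicate 1 and 1.29% in replicate 2. Nkx6-1 had 8.04% and 1.71%, and Otx2, of forebrain and eye, had 4.34% and 1.03%. Emx1 had 1.26% and 0.337%, and Alx1 had 2.20% and 0.650%. Evx2 had 7.78% and 1.99% although its promoter had no peak. Dlx1 and Dlx2, whose loci overlap and therefore count much of the same sequence, had 6.54% and 1.97% and 6.92% and 2.08%. Lhx2 had 11.6% and 4.31%. In the other direction, Barx1 had 1.07% and 3.23%, Msx2 had 1.29% and 3.25%, and Tgif1, a broadly used factor, had 10.4% and 16.8%. Genes with a CpG-rich promoter and a mean promoter value under 2, a group set after the values were seen, had higher cover in replicate 1 at 21 of 30 homeobox genes (70.0%) and at 40.7% of all such coding genes. Cover was higher in replicate 1 at 2 of 8 neuronal markers, 2 of 8 epithelial markers, 4 of 10 mesenchyme markers, 2 of 10 myofibre markers and 0 of 8 endothelial markers, and the part of cell makeup or library quality in the difference was not tested.

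**Figure D4:**
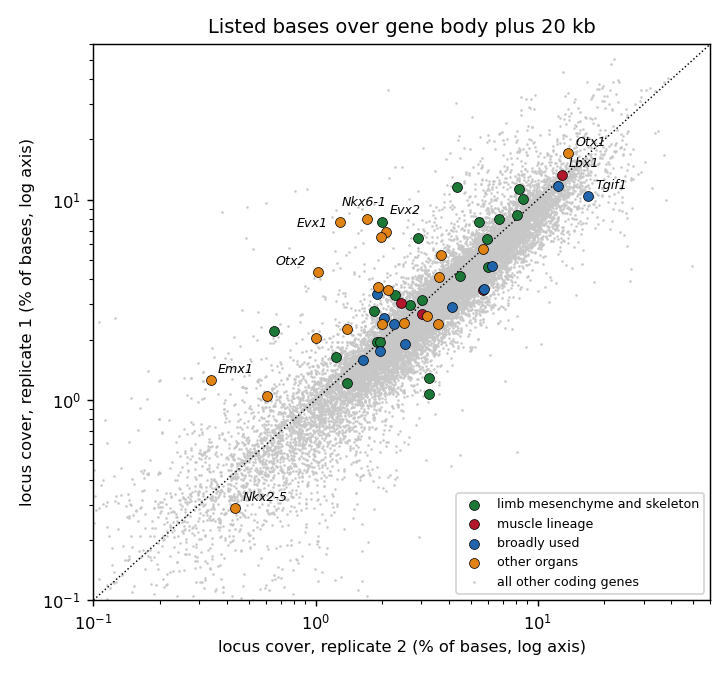
Locus cover in replicate 1 against replicate 2 (percent of bases listed in the gene body and 20 kb on either side, log axes) for the homeobox genes by class and for other coding genes above 0.1% in both replicates in grey; the dotted line marks equal cover. Evx1, Nkx6-1, Evx2 and Otx2 lie above the line, with 4.34% to 8.04% in replicate 1 and 1.03% to 1.99% in replicate 2.

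The loci with the highest cover as the mean of both replicates were Otx1 with 17.1% and 13.7%, Tgif1 with 10.4% and 16.8%, Lbx1 with 13.4% and 12.8%, Pbx2 with 11.7% and 12.4%, Shox2 with 11.3% and 8.28% and Irx5 with 10.1% and 8.61%. Otx1, a forebrain and inner ear factor, had the highest cover beside a promoter of only 1.27 and 1.13, with 25 peaks in its locus in replicate 1 and 21 in replicate 2. Its cover was above that of 99.1% of coding genes in replicate 1 and 98.0% in replicate 2. The lowest cover was found at Nkx2-5 with 0.289% and 0.436%, Emx1, of the cerebral cortex, with 1.26% and 0.337%, Nkx2-1 with 1.05% and 0.603%, Alx4, of limb and skull, with 1.21% and 1.39%, Alx1, of the face, with 2.20% and 0.650%, and Irx6 with 1.65% and 1.24%. The cover of Nkx2-5 was above that of 15.1% of coding genes in replicate 1 and 16.6% in replicate 2.

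The promoter values that differed most between the replicates were those of Meis3 at a ratio of replicate 2 to replicate 1 of 2.07, with 0.995 and 2.06, Emx1 at 0.494, with 0.772 and 0.381, En1 at 1.94, Meis1 at 1.88, Irx2 at 1.83, with 1.37 and 2.51, and Shox2 at 1.82. For all 6 the counting intervals of the replicates did not overlap. At Emx1 the 2 values came from different peaks that did not overlap. Their midpoints lay 216 bp into the gene from the start in replicate 1 and 496 bp in replicate 2. The median ratio over genes open in both was 1.19 in the homeobox genes and 1.36 in all coding genes.

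The highest peak of the locus lay at the promoter in both replicates for 16 of the 57 homeobox genes (28.1%), against 33.4% of all coding genes. With flanks of 50 kb it was 9 of 57, and the share over all coding genes at these flanks was not worked out. The highest peak lay elsewhere at 39 homeobox genes in replicate 1, in 8 of them within 500 bp of an annotated start of another gene, and at 34 in replicate 2, in 11 of them within that distance. The share of peaks near another gene's start was not worked out over all coding genes. Ranked by the geometric mean of the highest peak outside the promoter in each replicate, Pbx2 came first, with different peaks in the replicates: 11.1 in replicate 1 at the start of Notch4 and 19.7 in replicate 2 at the starts of Agpat1 and Rnf5. Prrx2, a factor of limb mesenchyme, followed with 12.5 and 11.2 at the start of Asb6, so that in replicate 1 it was above Pbx2. Lhx1 had 9.73 and 13.7 at the start of Aatf, and Irx5 had 6.75 and 11.6 at that of the noncoding gene Crnde. Zfhx3 and Meox1 came next without a neighbour's start: at Zfhx3 peaks of 6.92 and 7.80 lay in introns, and at Meox1 the highest peak had 5.88 in intergenic sequence in replicate 1 and 7.25 in an intron in replicate 2.

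Sites shared by both replicates and lying more than 500 bp from any annotated start were found in the loci of 50 homeobox genes (87.7%), against 75.9% of all coding genes. The highest such site of a locus had medians of 2.23 and 1.93 over the homeobox genes and of 2.06 and 2.08 over all coding genes. At Meis1 it lay 1536 bp upstream of the first start with 4.14 and 8.56, above the promoter. At Barx2 it lay 12589 bp upstream with 4.58 and 4.81, against 1.62 and 1.62 at the promoter. At Nkx3-2, a factor of cartilage whose promoter had 0.517 and 0.528, it lay 4080 bp upstream with 6.65 and 4.06. At Zfhx3 it lay in an intron 855607 bp downstream of the first start with 6.56 and 7.80, and at Meox1 in an intron 12513 bp into the gene with 4.31 and 7.25. These 5 sites were higher than the promoter of the same gene in both replicates and were named after their values were seen.

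**Figure D5:**
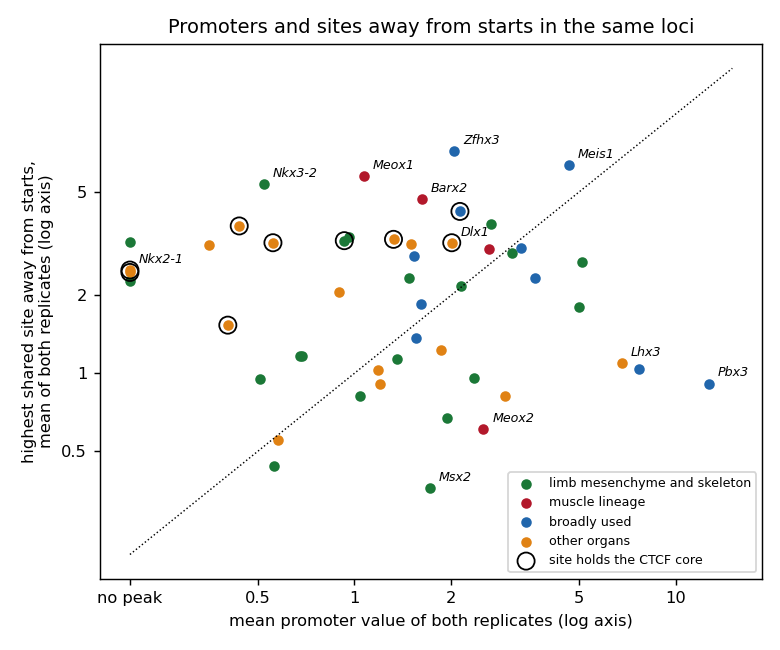
Highest shared site away from starts against the promoter value of the same homeobox gene, each as the mean of both replicates on log axes, coloured by class; the dotted line marks equal values and rings mark sites that hold the CTCF core. Nkx3-2, Barx2, Meox1, Zfhx3 and Meis1 lie above the line and Pbx3 and Lhx3 far below it.

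Of these sites, those of Meis1, chr11:19020401-19020640, Nkx3-2, chr5:41768501-41768660, and Barx2, chr9:31925961-31926140, all intergenic and written on the minus strand, which is the strand of each gene, are shown as the openings that exceeded the promoter upstream of the gene. Capitals mark bases in footprints of both replicates.
Meis1: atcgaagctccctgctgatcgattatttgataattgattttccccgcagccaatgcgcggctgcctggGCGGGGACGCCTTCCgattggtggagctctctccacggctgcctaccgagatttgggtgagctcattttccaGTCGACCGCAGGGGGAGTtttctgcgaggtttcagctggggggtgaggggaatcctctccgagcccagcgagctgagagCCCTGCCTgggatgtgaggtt
Nkx3-2: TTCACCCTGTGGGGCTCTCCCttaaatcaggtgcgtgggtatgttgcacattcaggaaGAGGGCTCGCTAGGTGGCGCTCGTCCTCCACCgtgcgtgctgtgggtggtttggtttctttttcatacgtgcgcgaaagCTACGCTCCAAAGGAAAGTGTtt
Barx2: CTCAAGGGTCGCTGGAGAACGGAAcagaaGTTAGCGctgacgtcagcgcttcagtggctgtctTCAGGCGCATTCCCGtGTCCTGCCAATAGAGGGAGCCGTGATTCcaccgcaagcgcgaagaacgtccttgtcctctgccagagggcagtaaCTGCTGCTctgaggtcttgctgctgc
The Meis1 stretch holds a match to the PBX and HOX word TGATNNAT, in lower case and so outside the shared footprints, besides CAGCTG and GGGCGG. The Barx2 stretch holds the TEAD word CATTCC, which was found in the 150 bp around the midpoint of 9.84% of all 68807 shared sites away from starts. At Nkx3-2 none of the words searched was found.

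The CTCF core was found in the highest shared site away from starts of 9 of the 50 homeobox genes that had such a site (18%), against 16.6% of coding genes, so the share was near the background. CTCF is the insulator protein that anchors chromatin loops. By class it was 7 of 16 organ factors, 1 of 20 limb factors, 1 of 10 broadly used factors and 0 of 4 muscle factors, and no promoter peak of a homeobox gene held the core, against 1.03% and 0.949% of all promoter peaks. Among the 7 organ factors Dlx1 and Dlx2 share the same site, and Cdx2 and Pdx1 have overlapping loci. With 8 limb factors counted as organ factors instead, the core was found at 8 of 23 organ factors (34.8%) and 0 of 13 limb factors. The sites had 1.90 and 1.17 at Pdx1, 3.11 and 1.90 at Nkx2-1, 3.49 and 1.41 at Cdx2, 4.16 and 2.21 at Dlx1 and Dlx2, 4.19 and 3.20 at Cdx1, 3.03 and 3.54 at Lmx1a, 4.08 and 2.41 at Dlx3 and 5.13 and 3.29 at Meis2, and at all but Lmx1a the value of replicate 1 was the higher. At Nkx2-1 and Cdx2, whose promoters had no peak, this site was the highest peak of the locus in both replicates. The site of Nkx2-1 lies in an exon of Gm26973 and that of Lmx1a in an intron of the gene, and the others are intergenic. The cores shown are in capitals with 14 bases on either side, on the strand on which they read: chr2:115855945-115855984 plus for Meis2, chr11:95107020-95107059 minus for Dlx3, chr5:147323677-147323716 minus for Cdx2, chr12:56541269-56541308 minus for Nkx2-1, chr5:147293296-147293335 minus for Pdx1, chr1:167782310-167782349 minus for Lmx1a and chr2:71548012-71548051 minus for Dlx1 and Dlx2.
Meis2: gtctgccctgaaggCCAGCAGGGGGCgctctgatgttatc
Dlx3: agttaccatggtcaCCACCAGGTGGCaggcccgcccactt
Cdx2: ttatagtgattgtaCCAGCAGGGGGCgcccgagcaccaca
Nkx2-1: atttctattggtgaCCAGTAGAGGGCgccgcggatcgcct
Pdx1: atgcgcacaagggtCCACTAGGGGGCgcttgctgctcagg
Lmx1a: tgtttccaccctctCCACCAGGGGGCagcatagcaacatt
Dlx1: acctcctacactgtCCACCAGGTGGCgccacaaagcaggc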

How the data were processed

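According to notes that the authors deposited for each sample, peaks, footprints and FDRs were made for each library from its own filtered alignments to mm10, with no pooling. For alignment, peak calling and footprint calling, the software used was not stated in these sources. The peak value is a signal deposited by the authors. The step was fitted in each library, and the share of signals that were whole multiples of it was not tested. The FDR, a corrected p-value deposited by the authors, is listed for positions under 0.05. The footprints deposited by the authors carry the value 0.01 on every line, so their positions alone were used. Mapping of CAST reads to this reference was not examined.

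Peaks of the wider deposited set counted when they overlapped a promoter window by at least 1 bp, or shared 1 bp between replicates. Genes with a protein-coding transcript on chromosomes 1 to 19, X and Y were used, with the GRCm38 sequence. Motifs were searched on both strands in 150 bp around midpoints. The members, classes, gene lists and motifs were chosen with earlier results of these data known. Full values were given for the 6 highest promoters of each class, members without a promoter peak, the 6 promoters that differed most between libraries, the 6 highest and 6 lowest loci by cover and the 6 highest peaks outside promoters. Other named genes were chosen after their values were seen. The overlap code was tested on simulated data. Alternatives were other windows, flanks, peak sets, thresholds and classes, and leaving out each replicate. Python 3.11.15, numpy 2.4.6, pandas 2.3.3, scipy 1.17.1 and matplotlib 3.10.9 were used.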

Additional observations from a re-analysis of the deposited data

How the results depend on the processing

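Of 45 alternative settings over 9 results, 39 moved by no more than the tolerance set for each, which was 1.5 times the reported count or, for a median, the spread between the replicates, and 6 moved by more. This tolerance is wide for counts. For a median, leaving out a replicate gives the values that set the spread, so those settings could hardly count as moved. Counting 8 limb factors, among them En1, Barx1 and Evx2, as organ factors cannot change the muscle and broadly used classes. It gave 14 of 14 limb and 20 of 28 organ promoters open in both replicates. These classes differ in size from those reported, so their counts cannot be compared directly. The stricter peak set, with 37 of 57 homeobox promoters open in both replicates in place of 49, counted as not moved. That share was 64.9%, close to the 61.8% of all coding genes. With windows of 250 bp on either side of a start the median promoter value of the homeobox genes, taken over the means of both replicates, was 1.04 in place of 1.48. Their median locus cover, 2.90% in the mean of both replicates and 2.78% for all coding genes, was 3.96% with flanks of 10 kb (2.89% for all coding genes), 1.48% for bases under an FDR of 0.001 (1.89%) and 1.88% for bases listed in both replicates (2.25%), so the order of homeobox and coding genes turned round under those last settings. It also did with flanks of 50 kb, at 2.50% in homeobox genes and 2.63% in all coding genes. The cause was not tested. In the stricter peak set 13 rather than 20 limb promoters were open in both replicates. With flanks of 50 kb the highest peak lay at the promoter of 9 rather than 16 homeobox genes, without a share of all coding genes to compare. Leaving out each replicate gave 49 to 52 homeobox promoters with a peak, a median promoter value of 1.25 to 1.62, a median cover of 2.52% to 3.37%, 48 with a footprint either way, 18 to 23 with the highest peak at the promoter and, by class, 20 limb, 4 muscle, 11 broadly used and 14 to 17 organ promoters. No paired analysis was possible because the series has 1 group. Both libraries limit what can be said: 2 samples give no error of a difference, and weak peaks rest on fewer steps than the median peak.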

Other observations

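A wider list of 102 other homeobox genes outside the Hox clusters, chosen with the same knowledge of the data, was open at the promoter in both replicates at 69 (67.6%), close to the 66% of all coding genes. A peak in replicate 1 alone was found at 12 of them (11.8%), against 1.86% of all coding genes, and in replicate 2 alone at 3 (2.94%), against 1.98%. Locus cover was higher in replicate 1 at 49 of the 102 (48.0%), against 27.2% of all coding genes. The highest promoters, named after their values were seen, were those of broadly used factors: Pknox1, a TALE partner of Pbx proteins, had 8.92 and 19.9, Zhx1 had 11.1 and 15.7, and Pou2f1, the octamer-binding factor, had 11.1 and 15.1. Mkx, a tendon factor, had 7.25 and 5.35. Of these 4 genes, Mkx alone was higher in replicate 1.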
